A study of Danio rerio with 24 samples.

Results

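Glycolysis breaks glucose down to pyruvate in the cytosol: transporters of the SLC2A family let glucose into the cell, hexokinase traps it as a phosphate, aldolase splits the phosphorylated sugar, and the later enzymes from glyceraldehyde phosphate dehydrogenase to pyruvate kinase yield ATP. Lactate dehydrogenase then interconverts pyruvate and lactate. Most steps are encoded by several genes, whose protein products (isozymes) catalyse the same reaction in different tissues, and neutrophils are known in mammals for drawing most of their ATP from this pathway. A total of 53 glycolysis genes were followed among the 23981 zebrafish genes counted. The list was chosen with earlier results of these data known. Genes were taken by name, 50 by the name table and 3 (ldha, pkma and hk2) by the naming of the study alone. Of these genes, 31 encode enzymes of the pathway from hexokinase to lactate dehydrogenase, 5 encode glucose transporters named slc2a1, slc2a2 or slc2a3, 9 encode other transporters of the SLC2A family, 6 encode the PFKFB regulators of phosphofructokinase, and 2 matched by name but act elsewhere (pgam5, a mitochondrial phosphatase, and pkmyt1, a kinase of the cell cycle).

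Expression was measured cell by cell in whole kidney marrow (WKM), where adult zebrafish form blood, by mCEL-Seq2, which counts each captured transcript once near its 3′ end. The transcripts of different genes can therefore be compared without scaling for gene length. Fish were 3 months old and untreated, and carried the IT325 allele of ikzf1, the fr105 allele of ikzf1, or no ikzf1 mutation (wild-type); ikzf1 codes for the transcription factor Ikaros, which binds DNA through zinc fingers and guides blood cell development. The IT325 protein lacks the zinc fingers at the C terminus, through which Ikaros proteins pair, whereas the fr105 protein keeps only the first DNA-binding zinc finger. Cells had been sorted by light scatter, and per the methods a stain was used to exclude dead cells. Each genotype had 8 libraries, and a barcode was taken as a cell from 1500 transcripts upwards, which left 359 IT325, 304 fr105 and 345 wild-type cells. No label names a fish, so that every p-value measures the spread between libraries, which may be technical. Libraries of a genotype shared sequencing lanes according to the methods, and lane and genotype cannot be told apart.

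A library held 22 to 56 cells and 86165 to 519252 transcripts in cells. The median per cell lay between 5364 and 8753 transcripts in IT325 libraries, between 3264 and 6120 in fr105 libraries and between 3160 and 4502 in wild-type libraries, so that IT325 cells gave more transcripts each; depth of sequencing and RNA per cell cannot be told apart. Cells were clustered with the glycolysis genes left out, and clusters were named from lists of marker genes. The classes, which were rebuilt from the counts and need not match those of the study, were neutrophil-like (495 cells), erythroid-like (92), macrophage-like (59), B cell-like (39), kidney tubule-like (36) and T cell-like (23), while 264 cells stayed unnamed. The composition differed between the genotypes: kidney tubule-like cells numbered 18 in IT325, 16 in fr105 and 2 in wild-type fish, erythroid-like cells 59, 7 and 26, and all 23 T cell-like cells and 35 of 39 B cell-like cells were wild-type.

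All 53 glycolysis genes had at least 1 transcript in these cells, 22 had 200 or more and 13 had fewer than 10. Together they gave 27140 transcripts, or 0.392% of all transcripts. The most abundant was gapdhs (ENSDARG00000039914; 3693 transcripts), one of a pair of genes for glyceraldehyde phosphate dehydrogenase, whose mammalian namesake is specific to sperm. The aldolase gene aldoaa (ENSDARG00000011665; 2996), the pyruvate kinase gene pkma (ENSDARG00000003933; 2986) and the enolase gene eno1a (ENSDARG00000022456; 2537) followed. Enolase and glyceraldehyde phosphate dehydrogenase were the steps with most transcripts, at 16.4% and 15.8% of the total, whereas the 5 phosphofructokinase genes, which encode the committed step, gave 2.47% and the 3 hexokinase genes 4.31%.

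The first question was which genes of each step the cell classes used. Levels are given as CPM, the transcripts of a gene per 1000000 transcripts counted in the same cells. The 31 enzyme genes together stood at 4076 CPM in macrophage-like cells, 604 in erythroid-like cells, 1937 in B cell-like cells, 2236 in T cell-like cells and 4543 in kidney tubule-like cells, against 5506 in neutrophil-like cells. The unnamed cells gave 2383. For a test, transcripts were summed per library and class, from 3 cells upwards, and compared between classes by edgeR's quasi-likelihood test with Benjamini-Hochberg adjustment over 1751 genes, of which 19 were glycolysis genes; log2 fold changes are given ± SE. The rest of the 53 genes were too low for the test.

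Kidney tubule-like cells differed from neutrophil-like cells in most of the tested glycolysis genes. Kidney tubule-like cells occurred in 17 libraries, and the 6 that held at least 3 of them (3 IT325 and 3 fr105 libraries, no wild-type library) entered the test. Over these, 6 of the 19 tested glycolysis genes were higher and 9 lower, with 39.6% of all tested genes called (10.7% higher and 28.9% lower). The median log2 fold change was 0.10 for the glycolysis genes, against -0.77 for all tested genes. Several of the genes that were higher encode transporters. The transporter genes named below had most of their transcripts in kidney tubule-like cells and passed the filter on low counts through these cells. Their direction was therefore set by the filter, and the count of higher genes and the median include them. Slc2a2 (ENSDARG00000056196), the GLUT2 glucose transporter found in mammalian kidney tubules, stood at 398 CPM in kidney tubule-like cells, against 1.92 in neutrophil-like cells (log2 fold change 7.26 ± 0.75). Also higher were slc2a11a (ENSDARG00000053961; 7.64 ± 0.70), slc2a12 (ENSDARG00000036865; 6.13 ± 0.69) and slc2a11l (ENSDARG00000062873; 6.17 ± 0.81). The last rested on 3 transcripts in neutrophil-like cells, for a ratio of 309 with a counting interval from 99.6 to 1546. Among the enzyme genes gapdh (ENSDARG00000043457), the second gene for glyceraldehyde phosphate dehydrogenase, was higher, at 1224 against 104 CPM (3.72 ± 0.43, edgeR adjusted p = 2.2e-13).

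The genes that were lower in kidney tubule-like cells included the ones most abundant in neutrophil-like cells. Levels were 94.9 against 839 CPM for gapdhs (log2 fold change -3.15 ± 0.50), 35.6 against 634 for eno1a (-3.80 ± 0.64) and 113 against 678 for pkma (-2.45 ± 0.47). The aldolase C gene aldocb (ENSDARG00000019702) had no transcript in kidney tubule-like cells, which is at least 12.2-fold lower than its 218 CPM in neutrophil-like cells, taking a floor of 3 transcripts over the class. The remaining ones were aldoaa (-1.99 ± 0.46), hk2 (ENSDARG00000026964, hexokinase 2; 1 transcript against 536, 29.0-fold lower with a counting interval from 5.18 to 1146), ldha (ENSDARG00000040856, which in mammals favours lactate production; -1.81 ± 0.60), gpia (ENSDARG00000012987, glucose phosphate isomerase; -1.54 ± 0.63) and pgk1 (ENSDARG00000054191, phosphoglycerate kinase; -1.33 ± 0.53). Differences in eno3 (ENSDARG00000039007), the gene named for muscle enolase (0.10 ± 0.40), tpi1b (ENSDARG00000040988, triosephosphate isomerase; 0.24 ± 0.47), ldhba (ENSDARG00000019644, the lactate dehydrogenase of the heart type; 0.76 ± 0.55) and pgam1a (ENSDARG00000005423, phosphoglycerate mutase; 0.97 ± 0.57) did not pass the test.

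**Figure D1:**
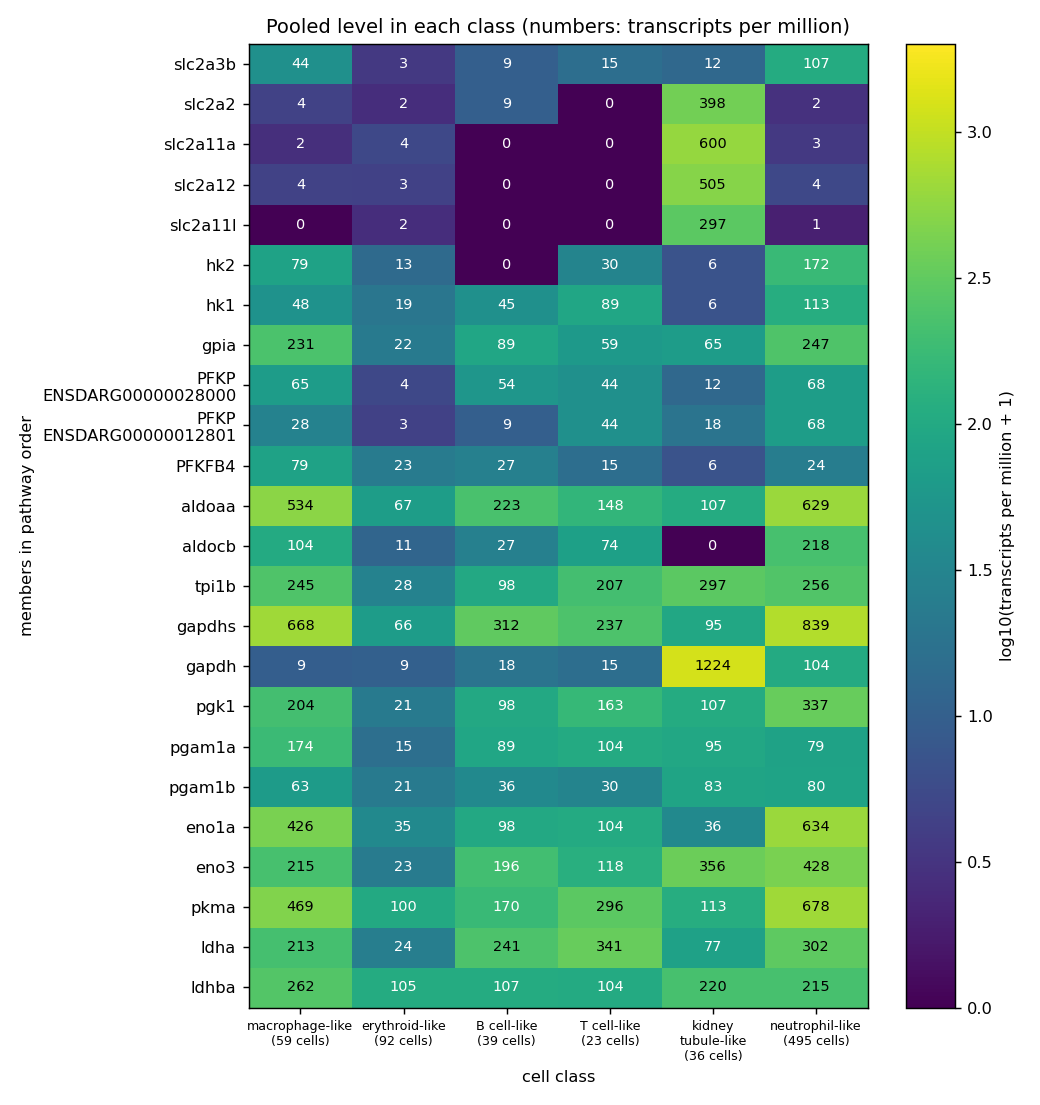
Pooled level of glycolysis genes (y axis, in pathway order) in 6 cell classes (x axis, with the number of cells); the printed numbers are CPM and the colour is their log10 after adding 1. In the kidney tubule-like column gapdh (1224) and the transporters slc2a2, slc2a11a, slc2a12 and slc2a11l are bright while gapdhs (94.9) and eno1a (35.6) are dark; the neutrophil-like column has the reverse.

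Expressed as shares of a step, the exchange of gapdhs for gapdh was near complete for glyceraldehyde phosphate dehydrogenase. In kidney tubule-like cells gapdh took 92.8% of the transcripts of this step (95% Wilson interval 88.6 to 95.5%), whereas in neutrophil-like cells gapdhs took 89.0%. Intervals cover counting error only. Enolase in kidney tubule-like cells was 90.9% eno3, whereas neutrophil-like cells had 59.0% eno1a. The liver-type pyruvate kinase gene pklr was rare (14 transcripts), and 12 of its transcripts lay in kidney tubule-like cells. Since these 36 cells held 35.1% of all gapdh transcripts, gapdh over all cells is also given without them.

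Macrophage-like cells had the fewest calls among the classes set against neutrophil-like cells. Of 19 tested genes 8 were lower and none higher over 10 libraries, with 28.8% of all tested genes called (10.3% higher and 18.6% lower), and the medians were -0.50 for the glycolysis genes and -0.20 for all genes. The largest difference was in gapdh, at 8.80 against 104 CPM (log2 fold change -3.29 ± 0.57, edgeR adjusted p = 4.8e-07). Gapdhs made up 98.7% of its step in macrophage-like cells, against 89.0% in neutrophil-like cells. The others were hk2 (-1.36 ± 0.37), aldocb (-1.27 ± 0.36), eno3 (-0.99 ± 0.31), pgk1 (-0.87 ± 0.33), eno1a (-0.85 ± 0.30), pkma (-0.75 ± 0.25) and gapdhs itself (-0.72 ± 0.25). With a minimum of 5 cells per sum, 4 genes passed. The share of all genes called in that fit is not given, so that this count cannot be set against all genes. Pgam1a took 73.3% of phosphoglycerate mutase transcripts, against 49.4% in neutrophil-like cells, where pgam1b (ENSDARG00000014068) had the rest; its log2 fold change was 0.85 ± 0.35 (adjusted p = 0.052). Among the regulators, PFKFB4 (ENSDARG00000029075), which sets the level of the activator of phosphofructokinase, stood at 79.2 CPM in macrophage-like cells and 23.7 in neutrophil-like cells, and was too low for the test.

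Erythroid-like cells were lowest in the pathway. Over 13 libraries 13 of 19 tested genes were lower and none higher, with 63.3% of all tested genes called (18.6% higher and 44.8% lower); the medians were -2.68 for the glycolysis genes and -0.65 for all tested genes. Levels of gapdhs were 65.9 against 839 CPM (-3.36 ± 0.27), and those of eno1a 35.5 against 634 (-3.68 ± 0.33). Ldhba and pkma were the most abundant of these genes in erythroid-like cells. Ldhba, at 105 against 215 CPM, did not pass the test (-0.68 ± 0.37, adjusted p = 0.10) and made up 81.1% of lactate dehydrogenase transcripts, against 41.5% in neutrophil-like cells.

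In B cell-like cells 13 of 19 tested genes were lower over 6 libraries (35.2% of all tested genes called, 8.45% higher and 26.8% lower, medians -1.91 and -0.54), and in T cell-like cells 11 of 19 over 4 libraries (25.0% called, 3.83% higher and 21.2% lower, medians -2.23 and -0.80). Neither class had a tested glycolysis gene that was higher. Hk2 had no transcript in B cell-like cells, at least 6.42-fold lower than in neutrophil-like cells by the same floor. Ldha stood at 341 CPM in T cell-like cells pooled over all libraries, against 302 in neutrophil-like cells. The fit, which compared both classes within the 4 libraries on TMM-scaled sums, gave a log2 fold change of the opposite sign (-0.71 ± 0.50, adjusted p = 0.30), so that no direction can be given. It took 76.7% of lactate dehydrogenase transcripts in T cell-like cells. Enolase in B cell-like cells was 66.7% eno3. The values of both lymphoid classes rest on few cells, nearly all of them wild-type.

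**Figure D2:**
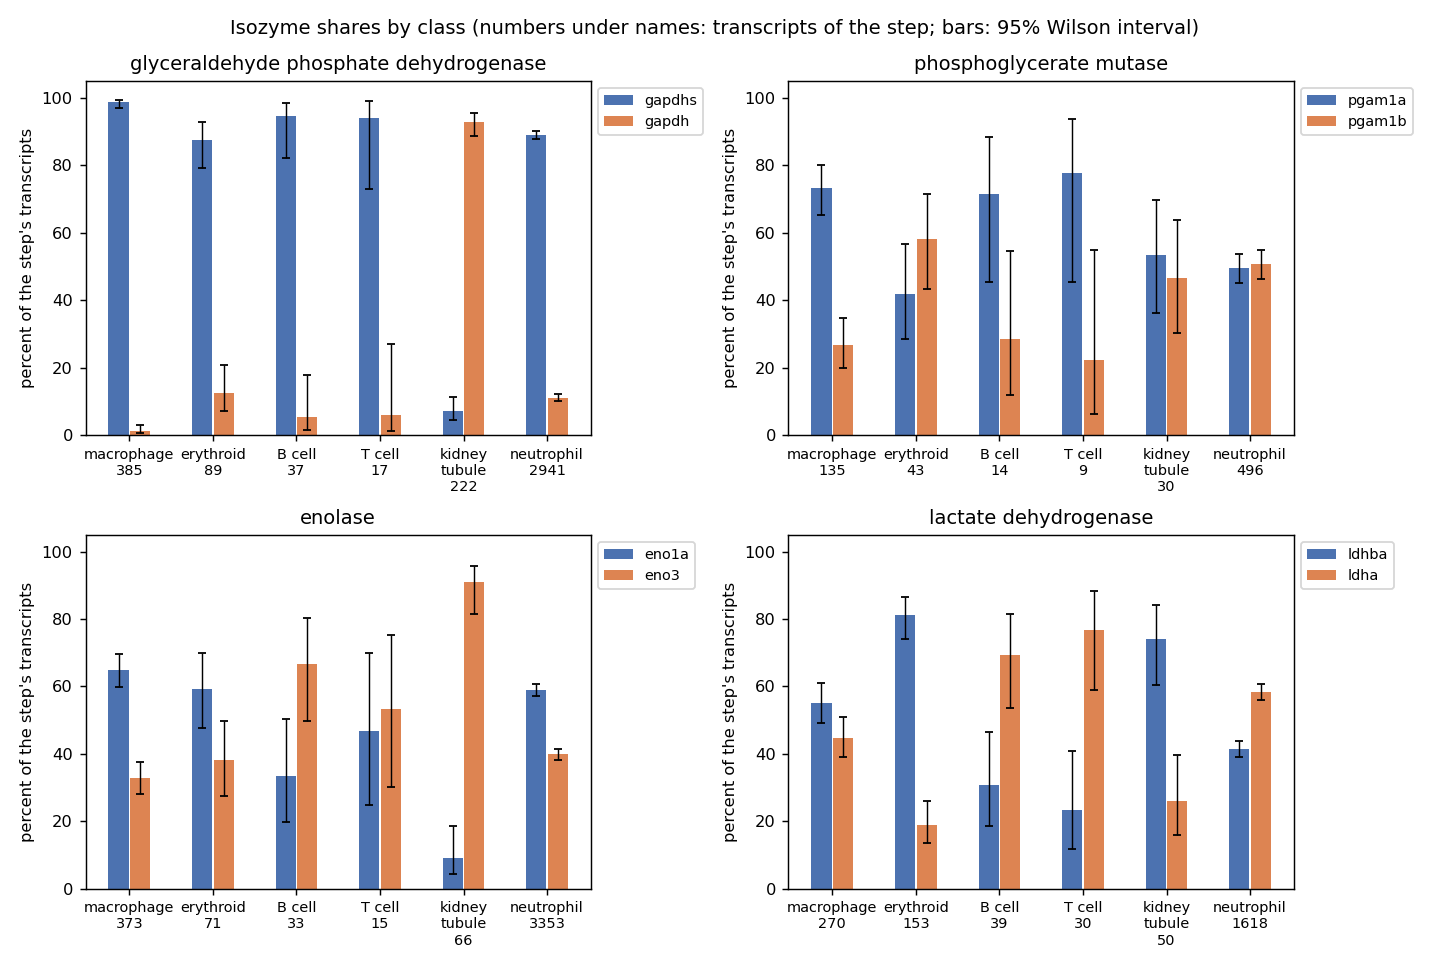
Share of each isozyme (y axis, percent of the transcripts of the step) in 6 cell classes (x axis, with the transcripts of the step under the class name) for glyceraldehyde phosphate dehydrogenase, phosphoglycerate mutase, enolase and lactate dehydrogenase; error bars are 95% Wilson intervals. Kidney tubule-like cells stand apart with 92.8% gapdh and 90.9% eno3, and erythroid-like cells have 81.1% ldhba.

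The second question was whether the glycolysis genes differed between the genotypes, first in sums over all cells of a library, where fewer cells of a type and less RNA per cell cannot be told apart. Of the 53 genes 20 passed the filter on low counts and 33 did not. The 31 enzyme genes together averaged 3389 ± 430 CPM in IT325, 4295 ± 330 in fr105 and 3692 ± 505 in wild-type libraries (SD, n = 8 each). By edgeR's quasi-likelihood test over 3296 genes, 4 glycolysis genes were higher and 1 lower in IT325 than in wild-type fish, with 21.7% of all genes called (11.4% higher and 10.3% lower). In fr105 against wild-type fish 6 were higher and none lower, with 24% called (11.5% higher and 12.5% lower). Both comparisons use the same wild-type libraries. The medians over the tested glycolysis genes were -0.02 and 0.26, against 0.00 and 0.02 over all genes, and the members called were 5 and 6 of the 20 tested.

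A gene of glucose entry, slc2a3b, and the enolase gene eno1a passed in both comparisons. Slc2a3b (ENSDARG00000037861), a GLUT3-type high-affinity glucose transporter, had 50.1 to 79.3 CPM in IT325 libraries (median 68.2) and 41.0 to 139 in fr105 libraries (median 71.8), against 25.2 to 68.9 in wild-type libraries (median 39.7). It was higher in IT325 (log2 fold change 0.81 ± 0.24, edgeR adjusted p = 0.013) and in fr105 (0.89 ± 0.25, adjusted p = 0.0070), with overlapping libraries. Eno1a had 298 to 480 CPM in IT325 (median 373) and 319 to 539 in fr105 libraries (median 424), against 193 to 383 in wild-type libraries (median 276), and was higher by 0.53 ± 0.15 and 0.55 ± 0.15, again with overlap.

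Lactate dehydrogenase A was lower in IT325 fish. Ldha had 97.6 to 185 CPM in IT325 libraries (median 155), against 201 to 322 in wild-type libraries (median 265), so that the libraries did not overlap (log2 fold change -0.61 ± 0.15, adjusted p = 0.0019). It had 199 to 310 in fr105 libraries (median 243), again above every IT325 library (fr105 minus IT325 0.56 ± 0.15, adjusted p = 0.0037). Pkma was 0.40 ± 0.14 higher in IT325 than in wild-type fish (adjusted p = 0.033), a call lost in 8 of 24 fits that left out 1 library, with adjusted p between 0.053 and 0.079 there.

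In fr105 fish aldoaa had 419 to 778 CPM (median 537), against 223 to 489 in wild-type libraries (median 366), and was higher by 0.67 ± 0.15 (adjusted p = 0.0011) in spite of overlap; this call held in all 32 alternatives run. Hexokinase 1 (hk1, ENSDARG00000039452; 0.71 ± 0.25, adjusted p = 0.034) and pgam1b (0.72 ± 0.27, adjusted p = 0.049) also passed, but their calls were lost in 10 and 19 of 24 fits that left out 1 library, with adjusted p reaching 0.088 and 0.11. For fr105 against IT325, 4 of 20 genes were higher and none lower, with 28.7% of all genes called (15.2% higher and 13.5% lower). Besides ldha, they were a phosphofructokinase gene named PFKP (ENSDARG00000012801), ldhba (0.48 ± 0.17, adjusted p = 0.031) and gapdh. PFKP ENSDARG00000012801 had 39.6 to 69.6 CPM in fr105 libraries, all above the 21.6 to 36.7 of the IT325 libraries (0.72 ± 0.25, adjusted p = 0.028). Its call was lost without IT325 replicate 10, fr105 replicate 1 or fr105 replicate 2 (adjusted p between 0.051 and 0.069), and that of ldhba in 8 of 24 such fits, up to 0.084. Over all alternatives run, the call of this PFKP gene was lost in 8 and that of ldhba in 13.

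Gapdh over all cells differed with and without the kidney tubule-like cells. It was 1.04 ± 0.37 higher in fr105 than in IT325 fish (adjusted p = 0.038). This call was lost in 10 of 24 fits that left out 1 library, down to 0.61 (adjusted p = 0.13) without fr105 replicate 8. Over all alternatives run it was lost in 15. The 16 kidney tubule-like cells of fr105 fish held 141 gapdh transcripts (1889 CPM), and the 18 of IT325 fish held 59 (669 CPM). Without the kidney tubule-like cells the difference was 0.48 (adjusted p = 0.21), at means of 57.3 ± 26 and 34.4 ± 11.2 CPM. Its difference between fr105 and wild-type fish was 0.30 (adjusted p = 0.61) over all cells and -0.87 (adjusted p = 0.016) without the kidney tubule-like cells. For IT325 against wild-type fish these values were -0.74 (adjusted p = 0.17) and -1.34 (adjusted p = 2.1e-04). The unnamed cluster 9 stayed in these sums. It held 12 IT325, 28 fr105 and 0 wild-type cells. The kidney tubule list was its best match, with 4 of 11 markers, which is below the limit for a name.

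Neutrophil-like cells, the only class with at least 12 cells in every library, allowed a comparison within a class. The 31 enzyme genes together averaged 6040 ± 681 CPM in IT325, 5226 ± 539 in fr105 and 5265 ± 327 in wild-type libraries (SD, n = 8 each). Different clusters held the class in the 3 genotypes: clusters 6 and 12 in IT325 (60 and 37 of 123 cells), clusters 1, 4 and 15 in fr105 (79, 58 and 29 of 179 cells), and clusters 2 and 1 in wild-type fish (121 and 49 of 193 cells). Differences between genotypes and between these clusters can therefore not be told apart except where a cluster is shared. Of the 53 genes 18 were tested among 1790 genes. In IT325 against wild-type fish 4 were higher and 2 lower (35.3% of all genes called, 19.7% higher and 15.5% lower). In fr105 against wild-type fish 2 were higher and 3 lower (18.5% of all genes, 10.1% higher and 8.49% lower), and in fr105 against IT325 fish 1 was higher and 4 lower (25.3%, 12.1% higher and 13.2% lower). The medians of the tested glycolysis genes were 0.24, -0.03 and -0.22, and the members called were 6, 5 and 5 of the 18 tested.

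Gapdh was lower in the neutrophil-like cells of both mutants. It had 55.7 to 116 CPM in IT325 libraries (median 69.1) and 33.0 to 130 in fr105 libraries (median 50.8), against 141 to 357 in wild-type libraries (median 184). No mutant library reached the lowest wild-type library. The log2 fold changes were -1.26 ± 0.29 for IT325 (adjusted p = 1.8e-04) and -1.69 ± 0.29 for fr105 (adjusted p = 3.5e-06). Both calls held in all alternatives run (32 and 31). Within the sets P1 and P2 of the labels the values were -1.06 and -1.49 for IT325, and -1.73 and -1.71 for fr105. In cluster 1 the pooled level was 78.5 CPM in IT325 (8 transcripts) and 45.5 in fr105 cells (24 transcripts), against 153 in wild-type cells (23 transcripts). In cluster 4, however, it was 82.2 in fr105 and 80.3 in wild-type cells (34 and 8 transcripts), and cluster 2, almost wholly wild-type, had the highest level at 269. In cluster 17 it was 98.2 in fr105 and 43.0 in wild-type cells (8 and 5 transcripts). IT325 cells held 1 gapdh transcript in cluster 4 and 0 in cluster 17. The part of the clusters in the difference was not tested, since gapdh was too low for a test within cluster 1.

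Eno1a was higher in both mutants. It had 651 to 1092 CPM in IT325 libraries (median 856) and 462 to 817 in fr105 libraries (median 565), against 234 to 529 in wild-type libraries (median 489). The IT325 libraries all lay above the wild-type libraries, while the fr105 libraries overlapped with them. The log2 fold changes were 1.11 ± 0.16 for IT325 (adjusted p = 2.3e-07) and 0.51 ± 0.16 for fr105 (adjusted p = 0.020), and fr105 was lower than IT325 (-0.60, adjusted p = 0.0027). Pooled eno1a levels in IT325, fr105 and wild-type cells were 639, 641 and 334 CPM in cluster 1. They were 203, 549 and 271 in cluster 4, and 403, 393 and 146 in cluster 17. These clusters held 18, 4 and 3 IT325 cells. In cluster 2 eno1a stood at 540 CPM in the 121 wild-type cells and at 500 in the 5 fr105 cells (11 transcripts). The part of the clusters in the differences was not tested. The IT325 call held in all 33 alternatives and in both sets. The fr105 call was lost in set P2 (0.24, adjusted p = 0.56) and in 6 of 24 fits that left out 1 library, down to 0.36 (adjusted p = 0.11) without wild-type replicate 3. In cluster 1 alone, an alternative chosen after seeing the data, the difference between fr105 and wild-type cells was 0.81 (adjusted p = 0.049), the single call among the 11 glycolysis genes tested there. The share of all genes called in that fit is not given. Eno3, which encodes the other main enolase, differed by 0.07 ± 0.18 and -0.10 ± 0.18 and did not pass the test.

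**Figure D3:**
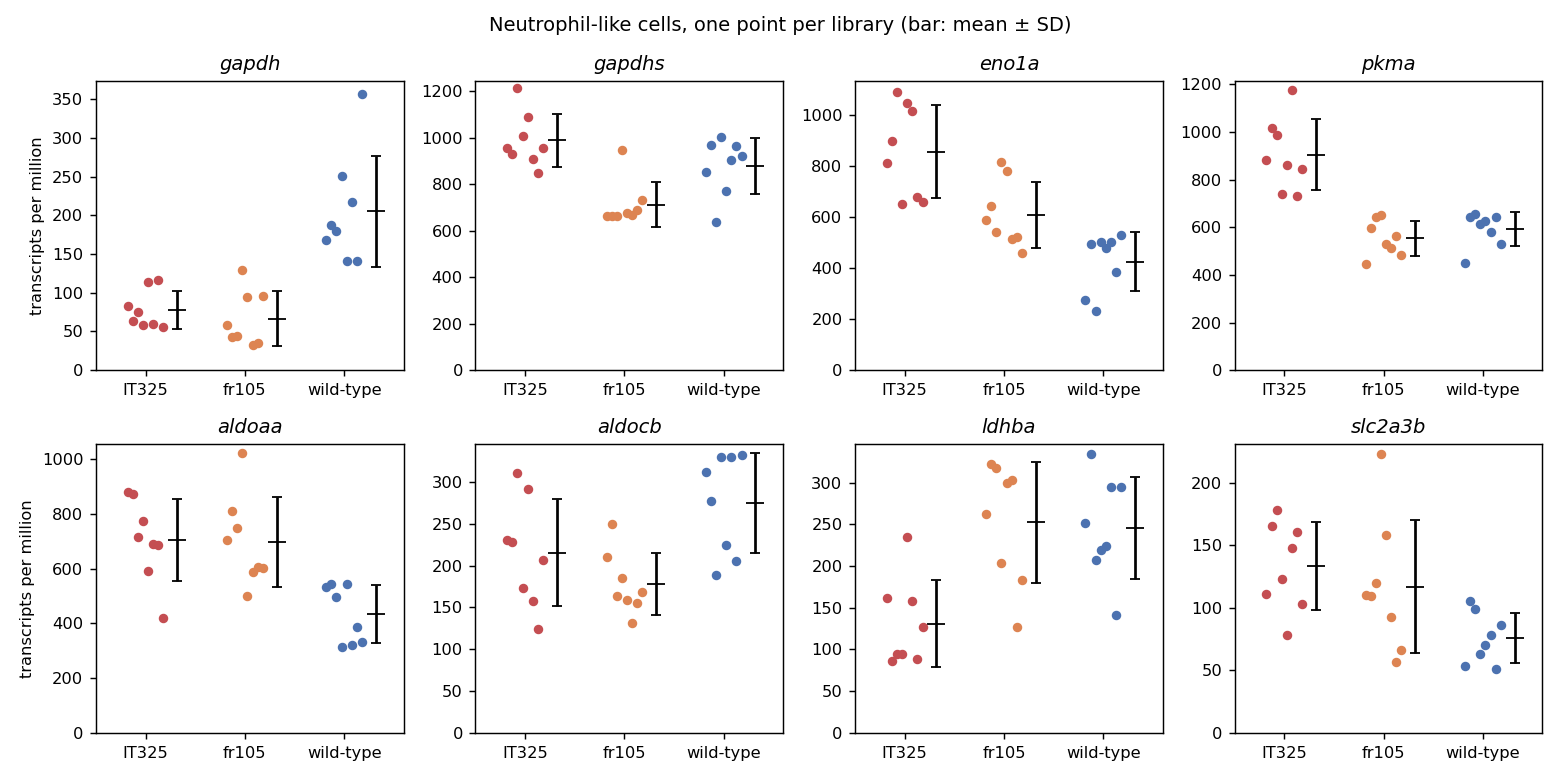
CPM (y axis) of named glycolysis genes in the neutrophil-like cells of each library (1 point per library; IT325, fr105 and wild-type from left to right; bars are mean ± SD, n = 8). The 16 mutant libraries lie below all wild-type libraries for gapdh, and the IT325 libraries lie above all others for pkma.

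Pkma was higher in IT325 than in both other genotypes. It had 732 to 1178 CPM in IT325 libraries (median 873), against 450 to 657 in wild-type libraries (median 620), with no overlap (log2 fold change 0.71 ± 0.13, adjusted p = 1.5e-05). The fr105 libraries, at 447 to 650 (median 546), also lay below every IT325 library (fr105 minus IT325 -0.82, adjusted p = 1.6e-06), whereas fr105 and wild-type libraries differed by -0.11 ± 0.13 (adjusted p = 0.63). Both calls held in all alternatives run (33 and 32), and the IT325 difference was 0.69 within set P1 and 0.69 within set P2. None of these alternatives compared IT325 cells with another genotype within a cluster. Pooled levels in IT325, fr105 and wild-type cells were 688, 580 and 540 CPM in cluster 1. They were 631, 520 and 412 in cluster 4, and 653, 479 and 388 in cluster 17. IT325 cells had 912 and 1029 in clusters 6 and 12, and wild-type cells 696 in cluster 2. The part of the clusters was not tested.

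Aldoaa was higher in both mutants, at 422 to 880 CPM in IT325 (median 704) and 499 to 1021 in fr105 libraries (median 656), against 314 to 546 in wild-type libraries (median 441). The libraries overlapped, and the log2 fold changes were 0.77 ± 0.16 (adjusted p = 1.1e-04) and 0.63 (adjusted p = 0.0022). Within the sets the IT325 difference was 0.38 (adjusted p = 0.16) in P1 and 1.1 in P2 (adjusted p = 2.8e-04), and the fr105 difference 0.71 (adjusted p = 0.013) in P1 and 0.49 (adjusted p = 0.15) in P2. Its isozyme aldocb was lower in fr105 (-0.62, adjusted p = 0.021), at a mean of 178 ± 36.9 against 275 ± 60.3 CPM (SD, n = 8 each). Pooled aldoaa levels in IT325, fr105 and wild-type cells were 659, 639 and 340 CPM in cluster 1. They were 451, 690 and 613 in cluster 4, which held 4 IT325 cells, and 557, 762 and 258 in cluster 17. IT325 cells had 665 and 942 in clusters 6 and 12, and wild-type cells 503 in cluster 2. The part of the clusters was not tested.

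The heart-type gene of lactate dehydrogenase was lower in IT325 than in both other genotypes. Ldhba had 86.5 to 235 CPM in IT325 libraries (median 111), against 142 to 334 in wild-type libraries (median 238), and was lower with overlap (log2 fold change -0.80 ± 0.22, adjusted p = 0.0043). The fr105 libraries, at 127 to 323 (median 281), were higher than IT325 by 0.85 (adjusted p = 0.0033) and differed from wild-type by 0.04 ± 0.21 (adjusted p = 0.91). Within set P1 the IT325 difference was -0.65 (adjusted p = 0.10). Ldha, lower in IT325 over all cells, gave -0.38 ± 0.17 (adjusted p = 0.081) within neutrophil-like cells.

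At the entry of the pathway slc2a3b was higher in IT325 than in wild-type neutrophil-like cells (0.87, adjusted p = 0.0077), at means of 134 ± 35.0 and 75.9 ± 20.2 CPM. Within the sets this difference was 0.64 (adjusted p = 0.21) and 1.05 (adjusted p = 0.051). Hk2 was lower in fr105 than in IT325 (-0.66, adjusted p = 0.033), at means of 126.5 ± 48.3 and 192.4 ± 42.9, a call lost in 6 of 24 fits that left out 1 library (adjusted p up to 0.080). Pooled hk2 levels in fr105 and IT325 cells were 121 and 128 CPM in cluster 1, 123 and 67.5 in cluster 4, and 85.9 and 153 in cluster 17. Gapdhs was lower in fr105 than in IT325 libraries (-0.59 ± 0.11, adjusted p = 1.4e-04), at 662 to 947 against 848 to 1215 CPM, a call that held in all 32 alternatives. None of these compared fr105 with IT325 cells within a cluster. Pooled gapdhs levels in fr105 and IT325 cells were 711 and 796 CPM in cluster 1, 692 and 654 in cluster 4, and 504 and 672 in cluster 17. In clusters 6 and 12, which held most IT325 cells, the IT325 levels were 961 and 1241. The part of the clusters was not tested. The gapdhs difference between fr105 and wild-type cells, -0.32 (adjusted p = 0.050), lay just inside the threshold, was lost in 10 of 24 fits that left out 1 library (adjusted p up to 0.063), and was 0.10 (adjusted p = 0.81) in cluster 1 alone. The 7 other tested genes (hk1, gpia, PFKP ENSDARG00000012801, tpi1b, pgk1, pgam1a and pgam1b), and eno3 and ldha named above, passed in none of the 3 comparisons, with log2 fold changes between -0.61 and 0.71.

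**Figure D4:**
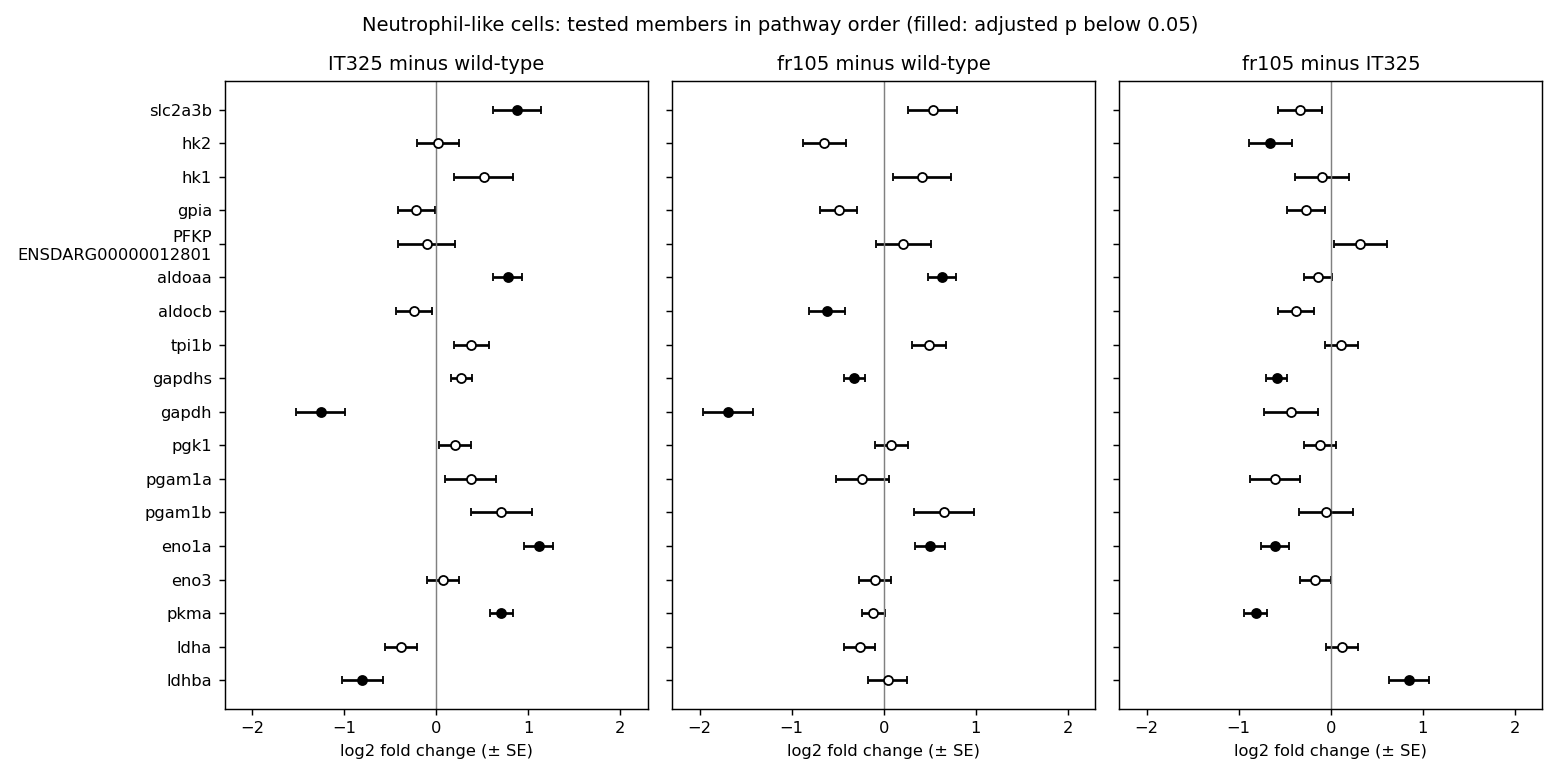
Log2 fold change ± SE (x axis) of the 18 tested glycolysis genes (y axis, in pathway order) in neutrophil-like cells for the 3 genotype comparisons; filled points passed edgeR's test at an adjusted p below 0.05. The leftmost points are gapdh in IT325 (-1.26) and fr105 (-1.69) against wild-type, and the rightmost is eno1a in IT325 (1.11).

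Isozyme shares do not depend on how a library is scaled, and were compared per library by a two-sided exact permutation test, adjusted over all paralog pairs tested in the same comparison. For 8 against 8 libraries the smallest p such a test can give is 0.00016. Over all cells 2 of 7 glycolysis pairs passed in IT325 against wild-type fish (18.4% of all pairs called), 1 of 7 in fr105 against wild-type fish (11.8%), and 0 of 8 in fr105 against IT325 fish (17.9%). The aldoaa share of aldoaa and aldocb was 10.8 percentage points higher in IT325 (adjusted p = 0.014) and 12.5 points higher in fr105 (adjusted p = 0.013), and the eno1a share of eno1a and eno3 was 12.1 points higher in IT325 (adjusted p = 0.0060).

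Within neutrophil-like cells 3 of 7 pairs passed in IT325 against wild-type fish (26.2% of all pairs called) and 2 of 7 in fr105 against wild-type fish (24.1%), while none of 7 passed in fr105 against IT325 fish (6.67%). Gapdh made up 7.34 ± 2.35% of the transcripts of gapdh and gapdhs in IT325 and 8.20 ± 3.25% in fr105, against 18.8 ± 4.69% in wild-type libraries (SD, n = 8 each). The libraries spanned 5.44 to 12% in IT325 and 4.71 to 12.2% in fr105, all below the 12.8 to 27.9% of the wild-type libraries (exact permutation p = 0.00016 each, adjusted p = 0.0021 and 0.0032). Eno1a made up 66.7 ± 8.12% of eno1a and eno3 in IT325 and 60.6 ± 9.13% in fr105, against 49.3 ± 7.28% in wild-type libraries. The IT325 libraries did not overlap with wild-type (adjusted p = 0.0021), while fr105 did not pass (adjusted p = 0.068). The aldoaa share of aldoaa and aldocb was 76.3 ± 7.15% in IT325 and 79.4 ± 3.11% in fr105, against 60.8 ± 9.88% in wild-type libraries (adjusted p = 0.021 and 0.0032), and the fr105 libraries did not overlap with wild-type.

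**Figure D5:**
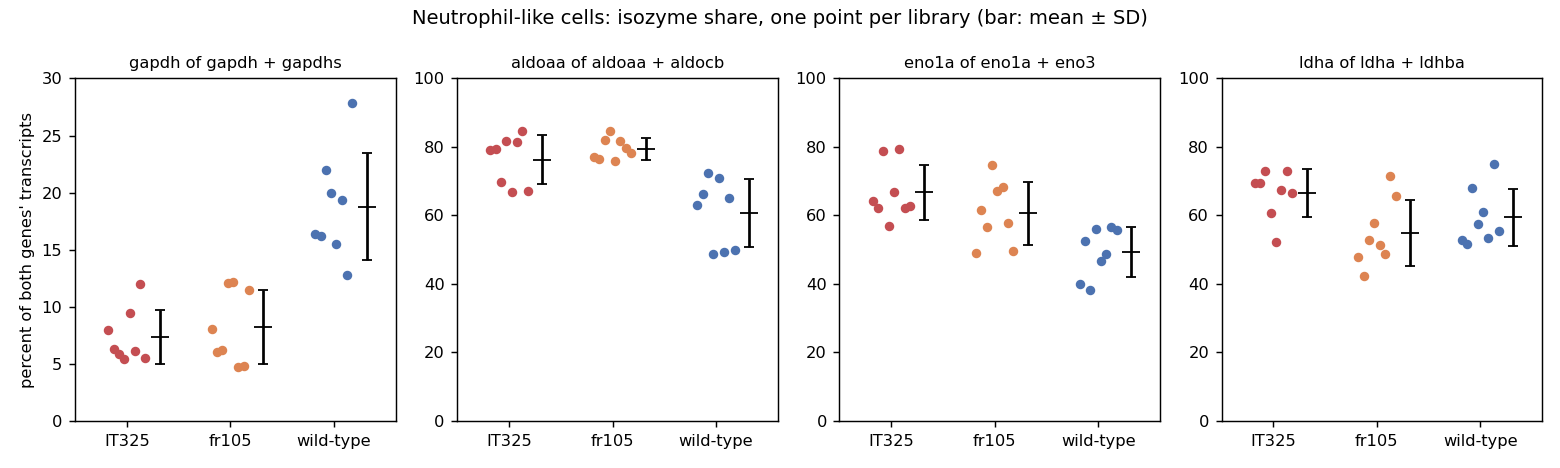
Share of the first gene of an isozyme pair (y axis, percent of the transcripts of both genes) in the neutrophil-like cells of each library (1 point per library; IT325, fr105 and wild-type from left to right; bars are mean ± SD). For gapdh the IT325 libraries (5.44 to 12%) and the fr105 libraries (4.71 to 12.2%) lie below the wild-type libraries (12.8 to 27.9%).

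The other pairs did not pass. Ldha made up 66.5 ± 7.0% of ldha and ldhba in IT325, 54.8 ± 9.69% in fr105 and 59.4 ± 8.25% in wild-type libraries; the difference of -11.7 points between fr105 and IT325 had an adjusted p of 0.13. The hk1 share of hk1 and hk2 was 19.4 points higher in fr105 than in wild-type libraries (adjusted p = 0.070). Shares of the phosphoglycerate mutase pair and of the pair of PFKP genes passed in none of the 3 comparisons, with adjusted p between 0.22 and 0.98.

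Genes of neighbouring pathways were read from lists chosen alongside the glycolysis genes. Of 5 matched genes of the pentose phosphate pathway, which branches off after hexokinase and yields NADPH, 3 were tested. Over all cells taldo1 (ENSDARG00000012256, transaldolase) was lower in IT325 than in wild-type fish (-0.48, adjusted p = 0.016), at means of 259 ± 46.9 against 407 ± 110 CPM (SD, n = 8 each). Pgd (ENSDARG00000015343, phosphogluconate dehydrogenase) was higher in fr105 than in IT325 fish (0.48, adjusted p = 0.013), at means of 264 ± 30.8 against 171 ± 43.3 CPM. Neither passed in any of the 3 comparisons within neutrophil-like cells. Of 12 matched genes of glycogen metabolism 3 were tested, and pgm1 (ENSDARG00000013561), which links glycogen to glucose phosphate, was higher in the neutrophil-like cells of IT325 (1.77, adjusted p = 1.9e-06) and fr105 fish (1.57, adjusted p = 3.2e-05) than of wild-type fish, at means of 177 ± 55.9 and 163 ± 57.1 against 56.3 ± 26.2 CPM. Over all cells gyg1a (ENSDARG00000011934, glycogenin) was higher in fr105 than in IT325 fish (0.91, adjusted p = 0.018).

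Of 14 matched genes that handle pyruvate and lactate 3 were tested, and pdhb (ENSDARG00000021346), a subunit of pyruvate dehydrogenase, was higher in fr105 than in wild-type neutrophil-like cells (1.04, adjusted p = 0.0022). Over all cells bsg (ENSDARG00000019881), which encodes basigin, a partner of lactate transporters, was higher in IT325 (0.82, adjusted p = 0.010) and fr105 (1.04, adjusted p = 0.0012) than in wild-type fish. Of 15 matched genes of the hypoxia response 3 were tested in neutrophil-like cells. Among them was hif1ab (ENSDARG00000034293), which encodes a hypoxia-inducible factor that in mammals activates many glycolysis genes. In neutrophil-like cells hif1ab was lower in IT325 (-0.45, adjusted p = 0.046) and fr105 (-0.87, adjusted p = 3.0e-04) than in wild-type fish, at means of 203 ± 41.2 and 159 ± 37.5 against 299 ± 50.3 CPM. Over all cells 4 genes of this list were tested. There ndrg1a (ENSDARG00000032849), known as a gene induced by hypoxia in mammals, was higher in IT325 (1.82, adjusted p = 0.045) and fr105 (2.45, adjusted p = 0.0068), at means of 103 ± 81.4 and 174 ± 156 against 31.8 ± 16.8 CPM. Hif1ab was lower in fr105 (-0.54, adjusted p = 0.0085) and did not pass in IT325 (-0.29, adjusted p = 0.16). The mix of cell classes differed between the genotypes, and its part in these sums over all cells was not tested. None of the 8 matched genes of gluconeogenesis was high enough to be tested.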

How the data were processed

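Per the labels and the methods, the authors demultiplexed with bcl2fastq 2.17.1.14, aligned with BWA 0.6.2-r126 (versions from the submitters' processing notes), discarded reads that matched several loci, and deposited expected counts, that is transcript numbers per barcode and gene estimated from molecular identifiers, without normalization. Discarding such reads lowers the values of near-identical paralogs. Of the 192 barcodes of a file, the fuller 96 were used, and 17 spike-ins were left out. The members and all gene lists were chosen with earlier results of these data known. The name table named 17966 of 23981 genes.

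Cells with at least 1500 transcripts were clustered with leidenalg 0.10.2 and igraph 0.11.9 after scikit-learn 1.9.0 (Python 3.11.15, with pandas 2.3.3, numpy 2.4.6 and scipy 1.17.1) on 2000 variable genes, 30 components and 15 neighbours at resolution 1, with the 53 members left out. Of 20 clusters, those with at least 60% of 1 marker list were named, a limit set after seeing the clusters. Doublets were not called, since wells were sorted for single cells. Expected counts were summed per library (and class, from 3 cells), rounded, and tested with edgeR 4.0.16 and limma 3.58.1 in R 4.3.3 (TMM scaling, filterByExpr, robust quasi-likelihood fit, Benjamini-Hochberg adjustment over all tested genes, threshold 0.05). The scripts were tested on simulated data. Genotype fits used all 24 libraries, and class fits kept the library as a block. Isozyme shares needed 10 transcripts of a pair per library. The text names members with at least 200 transcripts, members past a threshold, members with at least 20% of the transcripts of their step in a class, and the related genes with the smallest adjusted p in each list; results of 2 genes are not reported here. Alternatives were DESeq2 1.42.0, no filter, the replicate number as a block, sets P1 and P2, leaving out each library, thinning each cell to 1500 transcripts, a minimum of 3000 transcripts, classes from marker sums and leaving out kidney tubule-like cells; others, chosen after seeing the data, are named as such. A progenitor-like class was planned, but no cluster received that name, and the T cell-like comparison was added. No 2 libraries agreed within sampling noise. Figures were drawn with matplotlib 3.10.9.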

Additional observations from a re-analysis of the deposited data

Results flagged for a closer look

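Single libraries stood apart from the other 7 of their genotype by Dixon's criterion in 7 cases. Chance alone gives about 1 in 20 groups examined, which over all groups examined is close to the number found. The count alone therefore does not set these cases apart from chance. Library fr105 replicate 4, which with 86165 transcripts was the shallowest, accounted for 4: gpia stood at 302 CPM (transcripts per 1000000) over all cells (143 to 182 in the other fr105 libraries) and at 483 in neutrophil-like cells (155 to 246), gapdhs stood at 947 in neutrophil-like cells (662 to 733), and hk1 stood at 46.4 over all cells (89.0 to 123). Library fr105 replicate 8 had 361 CPM of gapdh over all cells (39.9 to 133 in the others), and it held 4 of the 16 kidney tubule-like fr105 cells, as did fr105 replicate 5, which had 133 CPM of gapdh. Wild-type replicate 8 was low in PFKP ENSDARG00000028000, the second PFKP gene (14.5 against 45.0 to 58.9 in the others), and wild-type replicate 7 was high in pgam5 (67.1 against 17.7 to 32.2).

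Barcodes outside the fuller 96 of each file held 403 transcripts of the 53 genes in all, which is 3840 CPM of the transcripts there, beside 3924 CPM in cells. These barcodes took 0.709 to 7.09% of the transcripts of a library.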

How the results depend on the processing

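Of the values that members past the threshold took under the alternatives, 1139 kept direction and call, 187 lost the call and 1 changed sign (gapdhs in fr105 against wild-type neutrophil-like cells, 0.10 in cluster 1 alone). In fr105 against wild-type fish, gapdh and its share of gapdh and gapdhs had no call over all cells (0.30 and 2.64 points). Without kidney tubule-like cells gapdh was -0.87, and in neutrophil-like cells its share was -10.6 points. Both of these passed the threshold and were opposite in sign to the values over all cells. The causes were not tested.

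Counts of members called differed between settings. In several settings the number of libraries or genes left also differed, and its part in the counts was not tested. Shares of all genes called are not given for the alternatives, so that counts of members there cannot be set against all genes. Over all cells the counts were 5 (IT325 minus wild-type), 6 (fr105 minus wild-type) and 4 (fr105 minus IT325), with 21.7%, 24% and 28.7% of all genes called. They were 1, 1 and 1 in set P1, 3, 2 and 1 in set P2, 3, 2 and 2 after thinning (10 members tested), and 11, 10 and 1 with no filter (53 tested). From 3000 transcripts upwards the first and the last were 3 and 2. IT325 P1 libraries against all wild-type libraries, an alternative chosen after seeing the data, gave 1. Leaving out each library gave 3 to 6, 4 to 7 and 1 to 5, with the lowest count without IT325 replicate 10.

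In neutrophil-like cells the counts were 6, 5 and 5, with 35.3%, 18.5% and 25.3% of all genes called. They were 3, 3 and 2 in P1, 3 for fr105 minus wild-type in P2, and 3, 1 and 2 after thinning (7 tested). For fr105 minus wild-type they were 1 in cluster 1 alone (11 tested) and 3 with no filter, and IT325 P1 libraries against all wild-type libraries gave 3. Leaving out each library gave 6 to 7, 3 to 7 and 4 to 5, with 3 for fr105 minus wild-type without fr105 replicate 5. Pairs with a changed share numbered 2, 1 and 0. They were 0 and 0 for the first pair of comparisons in P1 and again in P2, where 4 against 4 libraries cannot give a p below 0.029. The fr105 count was 2 in neutrophil-like cells alone, and leaving out each library gave 2 to 2, 1 to 2 and 0 to 0.

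Against neutrophil-like cells, thinning left 1 call for B cell-like (13 without thinning), 1 for erythroid-like (13), 2 for kidney tubule-like (15), 1 for macrophage-like (8) and 1 for T cell-like cells (11), since 2 members were then tested. Erythroid-like cells had 23 calls with no filter (52 tested), kidney tubule-like cells 9 with classes from marker sums, and macrophage-like cells 4 with a minimum of 5 cells.

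Replicate numbers did not pair the libraries: deviations of libraries with the same number correlated between -0.15 and 0.13. With the replicate number as a block, the counts were 3, 5 and 1 over all cells and 5, 4 and 4 in neutrophil-like cells. Low transcripts limit the rest: 33 of 53 members over all cells and 35 in neutrophil-like cells could not be tested.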
